A study of Mus musculus with 4 samples.

Results

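The miR-99/100 and miR-10 family is among the oldest groups of related miRNAs in animals, and it was examined here in the RISC of the mouse brain. Its members were taken by the miRNA name of each read, as mmu-miR-99a-5p, mmu-miR-99b-5p, mmu-miR-100-5p, mmu-miR-10a-5p and mmu-miR-10b-5p, which are 5 of the 1029 miRNA names in the data. Together they covered 425 of the 85704 distinct small RNA sequences. The libraries were made from RNA bound to the Ago proteins (Ago-RP-Seq), which were pulled down with a GW182 peptide from the combined cortex and hippocampus of male C57BL/6J mice. There were 2 libraries of 2-month-old mice and 2 libraries of 18-month-old mice, and the labels name no transgene or treatment for either age. Cortex and hippocampus hold neurons, glia and vessels, so a level is a mean over all of these cells. In such bulk samples, fewer cells of a type and less RNA per cell cannot be told apart.

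miRNAs guide Ago proteins to mRNAs, mostly through the seed at positions 2 to 8 of the miRNA, and the bound mRNAs are repressed. The miR-99/100 miRNAs are made from 3 loci that also hold let-7 and miR-125 miRNAs, and they are best known as repressors of the mTOR kinase and of the IGF1 receptor. The genes of the miR-10 miRNAs lie inside the Hox clusters, and like their Hox neighbours they are known for expression in the posterior body axis, including the spinal cord, and not in the forebrain. Both subgroups carry nearly the same sequence, and the difference between them changes the seed.

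The mature sequences are shown because the subgroups differ in the seed and the members of a subgroup differ outside it. They are from RefSeq (GRCm38.p6), written 5′ to 3′ with positions 2 to 8 in capitals, and all 5 names matched an entry.
miR-99a-5p: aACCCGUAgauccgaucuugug
miR-100-5p: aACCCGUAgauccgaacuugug
miR-99b-5p: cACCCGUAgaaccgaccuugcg
miR-10a-5p: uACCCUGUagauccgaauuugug
miR-10b-5p: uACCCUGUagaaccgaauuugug

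Counted from 1 at the 5′ end, miR-99a-5p and miR-100-5p shared their first 15 bases and differed by U16A. miR-99a-5p and miR-99b-5p differed by A1C, U11A, U16C and U21C, all outside the seed. The miR-10 members differed from each other by U12A. When the U at position 6 of miR-10a-5p was removed, the remaining 22 bases differed from miR-100-5p only by U1A and U17C, at positions counted on the shortened sequence. The 1 additional U therefore moves the family from the 6mer seed ACCCGU (positions 2 to 7) of miR-99/100 to ACCCUG of miR-10.

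The 5 loci lie on 5 chromosomes, all on the + strand of GRCm38.p6. miR-99a-5p is at chr16:77598940-77598961 in an intron of Mir99ahg, and the hairpin gene of let-7c-1 starts 721 bases and that of miR-125b-2 starts 47337 bases after the start of the miR-99a gene. miR-100-5p is at chr9:41531437-41531458 in introns of 3110039I08Rik and Gm49317, with let-7a-2 starting 5291 bases and miR-125b-1 starting 50501 bases downstream. miR-99b-5p is at chr17:17830194-17830215 in an intron of Spaca6, with let-7e at 164 bases and miR-125a at 624 bases. Among the Hox-linked members, miR-10a-5p is at chr11:96317186-96317208, its gene starts 1102 bases before Hoxb4, and no annotated gene on the same strand spans it. miR-10b-5p is at chr2:74726074-74726096 in introns of Hoxd3 and Hoxd4.

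The libraries held 9067007 to 11388999 reads behind the CPM scale, on which every library has the same total, and 96.6 to 96.7% of the reads had a miRNA name. Neuronal markers were high in every library, with miR-124-3p, a neuron-specific miRNA, at 104115 and 107034 CPM (2-month) and 98221.5 and 69405 CPM (18-month). Of the 5 neuronal markers, miR-124-3p among them, 2 were lower in both 18-month libraries and none was higher in both. Of 10 lists of cell type markers, 5 had lower sums at 18 months with no overlap between the ages, those of endothelium, vascular smooth muscle, immune cells, muscle and liver, and none had higher sums without overlap. Of all tested miRNAs, 41.4% were lower and 12.1% higher without overlap, and 5 lists of 10 is near the first share. The comparison is rough, since these shares are of single miRNAs with a mean of at least 10 CPM. A list is a sum over its markers, and the liver and Hox-linked lists lay below 10 CPM. Markers of red blood cells and the Hox-linked miRNAs overlapped, and miR-486a-5p of the red blood cell list was at 0 in all 4 libraries. The endothelial list (2 miRNAs) fell short of its 2-month sums of 12243 and 11472 CPM in both 18-month libraries, with 5422 and 8990 CPM. For the vascular smooth muscle list (2 miRNAs) the sums were 6415 and 6559 CPM (2-month) against 5033 and 4915 CPM (18-month). miR-126a-3p of the endothelial list was 1 of the miRNAs called lower at 18 months (log2 change −1.15, unadjusted p under 0.05 by limma), whereas miR-126a-5p from the same hairpin overlapped, with 3000 and 2618 CPM against 2865 and 2501 CPM (log2 change −0.07). The fall of the endothelial sum thus lay in 1 arm of 1 hairpin, and the part of these cells in the results on the family was not tested.

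The first comparison was between the subgroups. miR-99a-5p was the 16th most abundant miRNA by mean CPM, with 15490 and 9768 CPM in the 2-month libraries and 17695 and 13779 CPM in the 18-month libraries. miR-100-5p ranked 70th, with 3509 and 2069 CPM (2-month) and 2171 and 2046 CPM (18-month). miR-99b-5p ranked 77th, with 2949 and 1954 CPM (2-month) and 1235 and 1273 CPM (18-month). miR-99a-5p was above the other members in every library, and miR-100-5p exceeded miR-99b-5p by 1.06- to 1.76-fold.

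The miR-10 members were detected at a few CPM in every library. miR-10a-5p was at 8.58 and 6.85 CPM in the 2-month and at 8.98 and 7.94 CPM in the 18-month libraries, from 90, 78, 95 and 72 reads. miR-10b-5p was at 7.06 and 5.27 CPM in the 2-month and at 4.45 and 6.84 CPM in the 18-month libraries, from 74, 60, 47 and 62 reads. They ranked 474th and 500th of the 1029 names, and their 95% Poisson intervals reached from 5.41 to 10.98 CPM for miR-10a-5p and from 3.27 to 8.86 CPM for miR-10b-5p over the 4 libraries. These intervals cover counting error only. They overlap between miR-10a-5p and miR-10b-5p within each library except in 18-month replicate 1, where miR-10a-5p had 7.27 to 10.98 CPM and miR-10b-5p had 3.27 to 5.91 CPM.

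**Figure D1:**
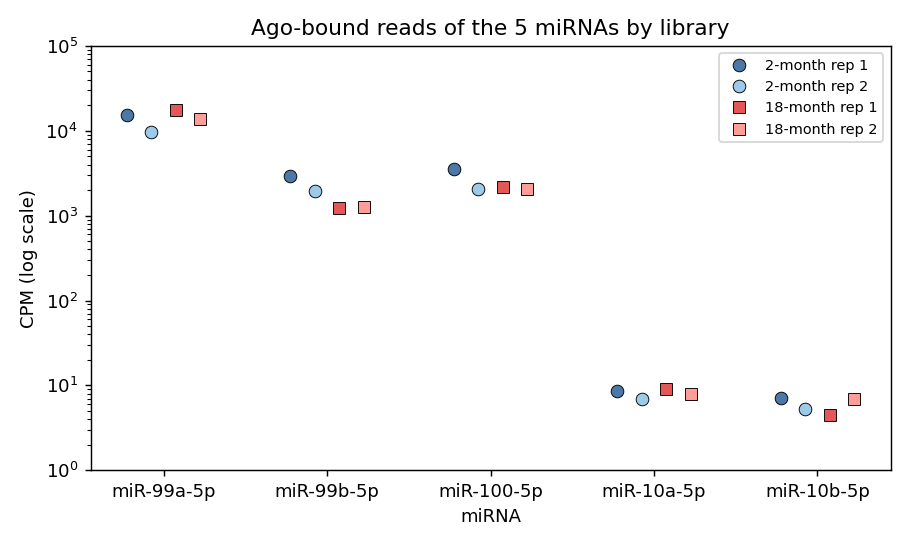
CPM of each member on a log axis, with 1 point per library (circles 2-month, squares 18-month). miR-99a-5p lies between 9768 and 17695 CPM in the 4 libraries, and both miR-10 members lie below 10 CPM.

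**Figure D2:**
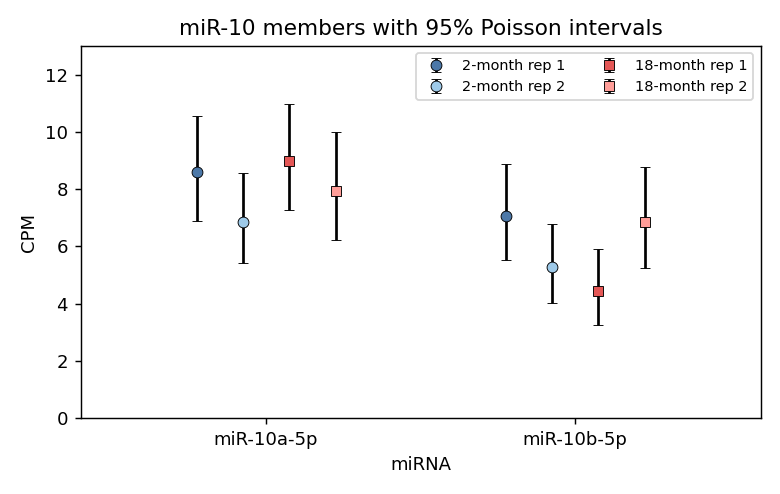
CPM of miR-10a-5p and miR-10b-5p in each library, with 95% Poisson intervals of the reads behind each point as bars. The points of the ages overlap for both miRNAs, and most of their intervals overlap too.

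The sum of miR-99a-5p, miR-99b-5p and miR-100-5p exceeded the sum of miR-10a-5p and miR-10b-5p by 1403-fold and 1138-fold in the 2-month libraries and by 1571-fold and 1157-fold in the 18-month libraries. It was higher in 4 of 4 libraries (two-sided exact sign-flip permutation test p = 0.125, the smallest value that 4 libraries allow). The smallest fold between any pair of members from the subgroups was 137, for miR-99b-5p over miR-10a-5p in 18-month replicate 1. The log2 ratio of the sums differed between the ages by 0.09, less than the difference between replicates of an age (0.30 and 0.44). An exact permutation test of this difference gave p = 0.667, and 2 libraries against 2 cannot go below 0.333. Together the 5 members made up 2.20 and 1.38% of the 2-month libraries and 2.11 and 1.71% of the 18-month libraries.

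Other miRNAs of the Hox clusters were lower still. miR-196a-5p, miR-196b-5p and miR-615-3p each had 0 to 0.763 CPM, at most 8 reads in a library. The 3 of them summed to 1.62, 0.615, 0.568 and 0.772 CPM, with 2-month replicate 1 the highest library. A count of 3 reads was worth 0.263 to 0.331 CPM, so the miR-10 members stood above this floor while most values of the other Hox-linked miRNAs were near it.

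The seed that the study scores is the 6mer, and each 6mer was given by the authors the mean viability of 3 mouse cell lines transfected with an siRNA of that seed, in percent of control (6mer seed viability, a value from a screen outside these data). The viability of ACCCGU was 57.2% and that of ACCCUG was 74.7%. Reads with the ACCCGU seed summed to 21759, 13702, 20937 and 16933 CPM (2-month replicates 1 and 2, then 18-month replicates 1 and 2), which placed this seed 15th among 3925 seeds. Members supplied a mean of 18144 of its mean of 18333 CPM, and miR-1247-5p, the other miRNA with this seed, had 0.969 CPM. ACCCUG ranked 622nd with a mean of 24.6 CPM, of which the miR-10 members supplied 11.4 CPM and miR-504-5p 9.57 CPM. The seed family of miR-99/100 was thus supplied almost wholly by its members, whereas other reads supplied more than the miR-10 members in 3 of 4 libraries, with 18-month replicate 2 (12.02 of 21.5 CPM from members) the exception.

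The second comparison was between the ages, and limma was fitted to log2(CPM + 1) over the 456 miRNAs that reached 10 CPM on average. An unadjusted p under 0.05, as in the methods of the study, was used as the call, and Benjamini-Hochberg adjusted p-values are given beside it. In this fit 55 miRNAs (12.1%) were called lower and 19 (4.17%) higher at 18 months, and 1 miRNA (0.219%) had an adjusted p under 0.05. Over the tested miRNAs the median of the log2 changes was −0.22. Rescaling each library by the median of its ratios to the mean library moved this median to −0.01 and the calls to 25 lower and 39 higher. The miR-10 members were below 10 CPM and were not tested in this fit.

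miR-99b-5p was the 1 member of the family that was called. The 18-month libraries (1235 and 1273 CPM) both lay below the 2-month libraries (2949 and 1954 CPM), so the groups did not overlap. The means were 2452 ± 704 (SD, n = 2) and 1254 ± 27.3 CPM (SD, n = 2). The log2 change was −0.94 (SE 0.26, 95% interval −1.56 to −0.31) by limma. Its unadjusted p = 0.0102 made the call, while the exact permutation test of 2 against 2 libraries gave 0.333, the smallest it can give. With adjusted p = 0.229 by limma it did not pass the adjustment. It ranked 19th of 456 by p, and 27 miRNAs had a change as low or lower, miR-99b-5p included. This lack of overlap was shared with 41.4% of all tested miRNAs, which were lower in the same way. After rescaling, the log2 change was −0.72 and the call was kept (adjusted p = 0.271, limma). Without 18-month replicate 1 it was −0.91 and no longer a call (adjusted p = 0.379, limma, with 1 library at 18 months whose spread is taken from the 2-month libraries and the trend over miRNAs). The 2-month libraries were 0.59 apart on the log2 scale, with replicate 1 the higher, and without 2-month replicate 1 the change was −0.64.

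miR-99a-5p was not called. Its values overlapped between the ages (15490 and 9768 CPM against 17695 and 13779 CPM), and 2-month replicate 2 was the low library. The log2 change was 0.34 (SE 0.29, 95% interval −0.36 to 1.05, adjusted p = 0.520, limma), and 0.56 after rescaling. Without 2-month replicate 2 it was 0.01. The interval includes both a fall and a rise.

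miR-100-5p was not called either. The 18-month libraries (2171 and 2046 CPM) lay at the level of 2-month replicate 2 (2069 CPM), and 2-month replicate 1 stood above them with 3509 CPM. The log2 change was −0.35 (SE 0.29, 95% interval −1.06 to 0.35, adjusted p = 0.517, limma). This value rested on 2-month replicate 1, since it was 0.03 without that library and −0.74 without 2-month replicate 2, where the unadjusted p by limma fell under 0.05 (adjusted p = 0.256). In these fits 1 age has 1 library, whose spread is assumed to be that of the other age.

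For the miR-10 members the ages overlapped. The log2 change, given as a value without a test, was 0.12 for miR-10a-5p and −0.12 for miR-10b-5p. Neither sign was stable. That of miR-10b-5p turned after rescaling (0.06), with reads of the annotated seed only (0.03), without 2-month replicate 1 (0.06) and without 18-month replicate 1 (0.14), and that of miR-10a-5p turned without 2-month replicate 2 (−0.02). With 47 to 95 reads per library, changes of this size were not detectable at this depth.

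The miRNAs that share a locus with a member were compared with it, since neighbours this close can come from 1 primary transcript. let-7e-5p, the neighbour of miR-99b, went from 4902 and 4255 CPM (2-month) to 3871 and 3692 CPM (18-month), a log2 change of −0.27 (adjusted p = 0.497, limma). miR-125a-5p of the same locus had overlapping values, 5502 and 7100 CPM against 6636 and 4256 CPM (−0.23, adjusted p = 0.678, limma). The opposite arm of its own hairpin, miR-99b-3p, had 84.5 and 68.0 CPM against 62.1 and 61.7 CPM (−0.29, adjusted p = 0.509, limma). All 3 were close to the median change of all miRNAs of −0.22, and none was called, while miR-99b-5p fell by 0.94 on the log2 scale.

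At the other loci, let-7c-5p had a log2 change of −0.27, let-7a-5p −0.24 and miR-125b-5p −0.43, none of them called. let-7c-5p, let-7a-5p and miR-125b-5p are also made from other loci, so their values are not those of 1 cluster. miR-99a-3p had 39.0, 40.5, 33.7 and 62.8 CPM in the 4 libraries and miR-100-3p had 9.73, 11.1, 9.08 and 10.4 CPM, and neither was called. In every library the 5p arm exceeded the 3p arm, by at least 19.9-fold for miR-99b, 187-fold for miR-100 and 219.6-fold for miR-99a. No sequence named miR-10a-3p or miR-10b-3p was among those kept after the removal of rare reads.

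**Figure D3:**
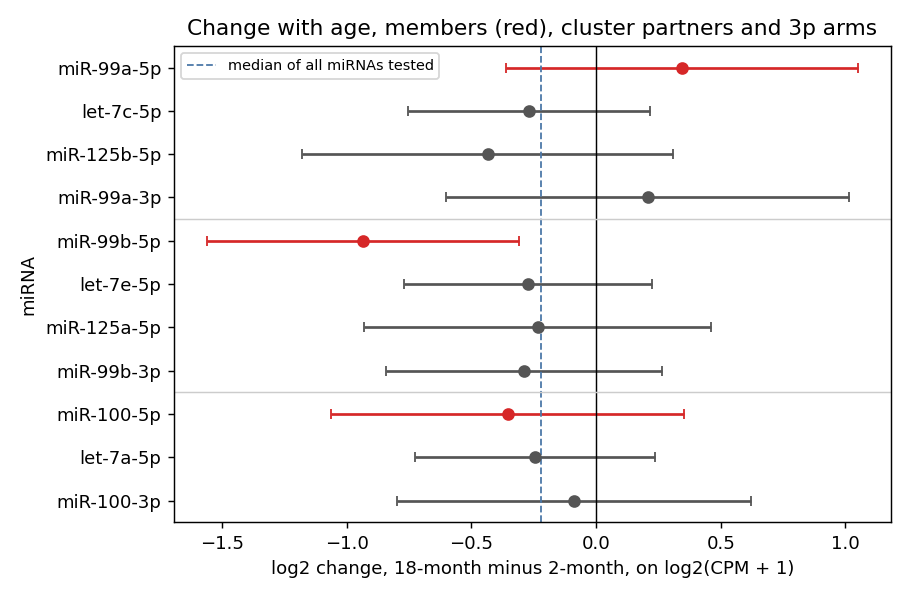
log2 change (18-month minus 2-month, on log2(CPM + 1)) with 95% intervals from limma for the tested members in red and for their cluster partners and 3p arms in grey, with the median of all tested miRNAs as a dashed line. The interval of miR-99b-5p ends at −0.31 and is the 1 interval that lies wholly below 0.

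Ratios within a library do not depend on the scaling of that library. miR-99a-5p exceeded miR-99b-5p by 5.25-fold and 5.0-fold in the 2-month libraries and by 14.3-fold and 10.8-fold in the 18-month libraries. The difference of 1.28 on the log2 scale was larger than the distance between replicates at 2 months (0.07) and at 18 months (0.41). miR-99a-5p exceeded miR-100-5p by 4.41-fold and 4.72-fold at 2 months and by 8.15-fold and 6.73-fold at 18 months (0.70 on the log2 scale). The ratio of miR-100-5p to miR-99b-5p was 1.19 and 1.06 at 2 months and 1.76 and 1.61 at 18 months (0.58). Thus miR-99a-5p supplied 70.5 and 70.8% of the family's reads (2-month), then 83.8 and 80.5% (18-month), and miR-99b-5p supplied 13.4 and 14.2% and then 5.85 and 7.44%.

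**Figure D4:**
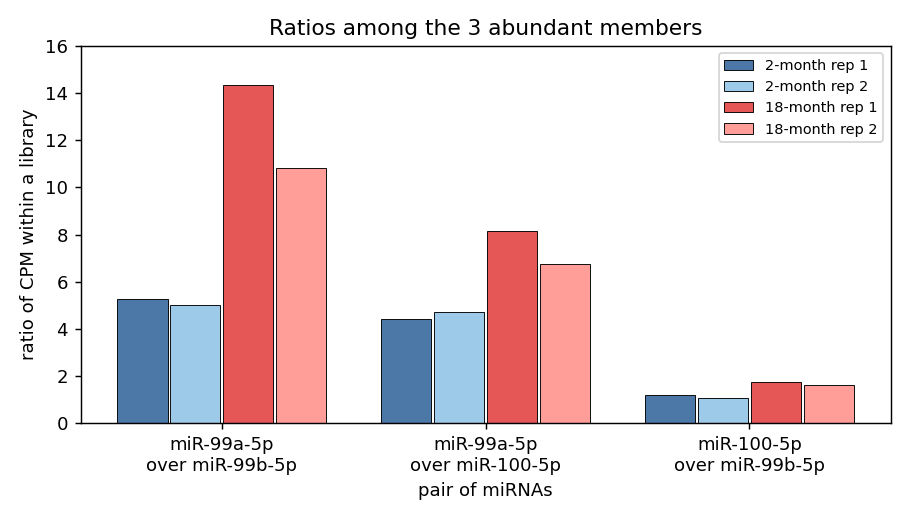
Ratio of CPM within each library for the 3 pairs of abundant members, with 1 bar per library (blue 2-month, red 18-month). For each pair both 18-month bars are above both 2-month bars, and for miR-99a-5p over miR-99b-5p they reach 14.3 and 10.8 against 5.25 and 5.0.

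The 5p to 3p ratio of miR-99b was 34.9 and 28.7 at 2 months and 19.9 and 20.7 at 18 months. The ratio of miR-99b-5p to let-7e-5p was 0.602 and 0.459 at 2 months and 0.319 and 0.345 at 18 months, without overlap, whereas that to miR-125a-5p overlapped (0.536 and 0.275 against 0.186 and 0.299). The ratio of miR-99a-5p to miR-125b-5p rose from 0.604 and 0.584 to 0.952 and 1.09. That to let-7c-5p was 0.654 and 0.437 at 2 months and 0.922 and 0.724 at 18 months. Its log2 difference of 0.61 was near the distance between the 2-month replicates (0.58). The ratios of miR-100-5p to let-7a-5p and to miR-125b-5p overlapped. Of 14 ratios computed, 13 of them chosen after the values were seen, 7 did not overlap between the ages. Each of these 7 had an exact permutation p of 0.333, the smallest possible, and 0.667 after Benjamini-Hochberg adjustment over the 14. Over all pairs of tested miRNAs, 46.1% of the ratios did not overlap between the ages, so the share among the 14 is close to the background.

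The reads of a member are a set of sequences with different ends. The most abundant read of miR-99a-5p ended 1 base before the annotated 3′ end, while for miR-99b-5p and miR-100-5p the annotated sequence was the most abundant. The following reads are shown, with the letters as deposited (T for U) and positions 2 to 8 of the read in capitals, because they make up most reads of the members and because a start 1 base downstream changes the seed.
miR-99a-5p, 1 base short: aACCCGTAgatccgatcttgt
miR-99a-5p, annotated: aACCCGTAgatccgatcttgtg
miR-99b-5p, annotated: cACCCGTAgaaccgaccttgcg
miR-99b-5p, 1 base short: cACCCGTAgaaccgaccttgc
miR-100-5p, annotated: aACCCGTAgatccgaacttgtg
miR-100-5p, 1 base short: aACCCGTAgatccgaacttgt
miR-10a-5p, 1 base short: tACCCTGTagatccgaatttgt
miR-10a-5p, start 1 base downstream: aCCCTGTAgatccgaatttgt

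At the level of sequences, limma was fitted over the 14287 sequences that reached 1 CPM on average. The short read of miR-99b-5p (21 nt) fell from 878 and 671 CPM (2-month) to 276 and 313 CPM (18-month), a log2 change of −1.38 (SE 0.28, adjusted p = 0.199, limma). The annotated read of 22 nt had 1572 and 915 CPM against 689 and 720 CPM (log2 change −0.77, adjusted p = 0.463, limma). Both were lower in both 18-month libraries and were called at an unadjusted p under 0.05. Of miR-100-5p, the short read was called as well, with 1139 and 857 CPM against 670 and 567 CPM (log2 change −0.68, adjusted p = 0.464, limma). The annotated read of miR-100-5p, with 1608 and 929 CPM against 1031 and 1107 CPM, overlapped and was not called (log2 change −0.19, adjusted p = 0.866, limma). The abundant reads of miR-99a-5p overlapped as well, with 7014, 4683, 8552 and 6418 CPM for the short read and 4783, 3240, 5559 and 4413 CPM for the annotated one.

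Of the 425 member sequences, 113 passed the filter of 1 CPM, which were 66 of 218 for miR-99a-5p, 21 of 92 for miR-99b-5p, 24 of 99 for miR-100-5p and 1 each of 9 and 7 for miR-10a-5p and miR-10b-5p. At an unadjusted p under 0.05, 8 sequences of miR-99b-5p and 2 of miR-100-5p were called lower, and none of the 113 was called higher by limma. Over all tested sequences, 4.23% were called lower, 5.87% higher, and 0.042% had an adjusted p under 0.05, with no member sequence among the last. edgeR called 10 lower and DESeq2 9 lower. These sequences share their hairpins and libraries and are not independent. Without 2-month replicate 1 there were 21 calls, 17 of them higher, and without 2-month replicate 2 there were 17, all lower, so the count and its direction depended on the 2-month library that was kept.

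The 3′ ends of miR-99b-5p and miR-100-5p differed between the ages. Reads of 21 nt, 1 base shorter than annotated, made up 31.0 and 35.9% (2-month) against 23.6 and 26.0% (18-month) of the miR-99b-5p reads. In miR-100-5p they were 33.8 and 43.0% (2-month) against 32.1 and 29.0% (18-month). In miR-99a-5p the ages overlapped, with 48.0 and 50.6% against 50.9 and 49.2%. The changes of −8.65 and −7.87 percentage points for miR-99b-5p and miR-100-5p were the 4th and 5th lowest among 221 miRNAs with at least 1000 reads in each library, whose median change was 0.69. The value of miR-100-5p rested on 2-month replicate 2, since without that library it was −3.30 points and the 24th lowest. That of miR-99b-5p ranged from −11.1 to −6.23 points when 1 library was left out. Among these 221 miRNAs this share was lower in both 18-month libraries for 13.6% and higher in both for 26.7%.

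In the same reads, the share at the annotated 22 nt was higher at 18 months, with 54.7 and 48.4% against 57.6 and 58.1% for miR-99b-5p. For miR-100-5p it was 47.6 and 46.4% against 49.3 and 55.9%. In miR-99a-5p it overlapped (33.1 and 35.7% against 33.7 and 34.2%). The change of miR-99b-5p was 6.31 points, and 3.18 without 2-month replicate 2, and that of miR-100-5p was 5.61 points, and 2.30 without 18-month replicate 2. Over the 221 miRNAs, 8.6% had a higher share in both 18-month libraries and 32.1% a lower one. Reads of 20 nt or less were higher at 18 months too, so the lengths did not move in 1 direction. They were 8.34 and 10.9% (2-month) against 13.5 and 12.5% (18-month) for miR-99b-5p. For miR-100-5p they were 3.38 and 6.31% against 7.37 and 7.18%, and in miR-99a-5p they overlapped. A background over all miRNAs was not computed for this length. Each of these shares gave an exact permutation p of 0.333 for miR-99b-5p and for miR-100-5p, the smallest that 2 against 2 libraries allow.

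**Figure D5:**
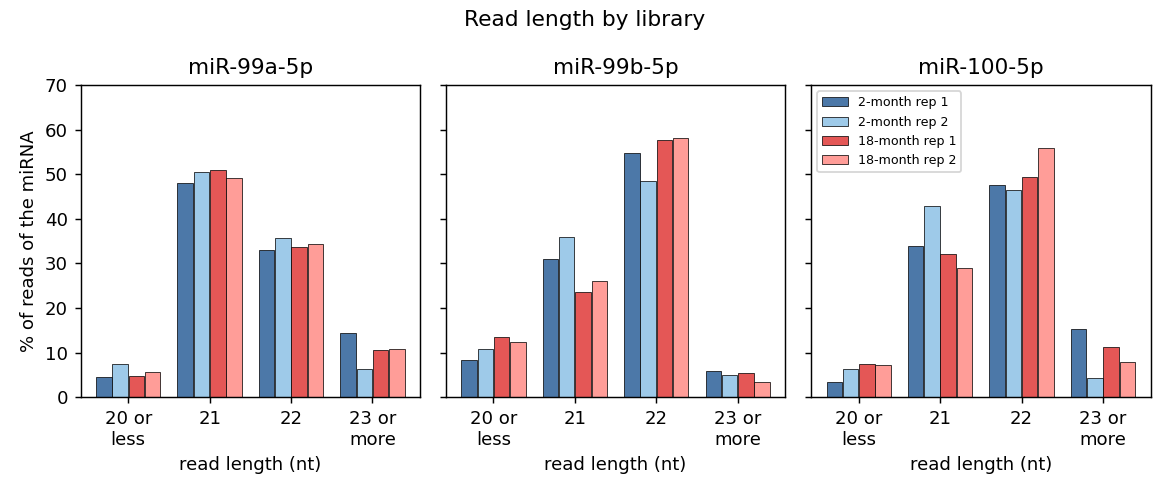
Share of the reads of miR-99a-5p, miR-99b-5p and miR-100-5p by read length, in percent of the reads of that miRNA, with 1 bar per library. The bars at 21 nt are lower in both 18-month libraries for miR-99b-5p and miR-100-5p and overlap for miR-99a-5p. For miR-99b-5p and miR-100-5p the bars at 22 nt and at 20 nt or less are higher in both 18-month libraries.

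Reads of 23 nt or more were mostly full-length reads with an additional base that the hairpin does not hold. The added A took 8.66, 3.50, 6.39 and 5.47% of the miR-99a-5p reads and 10.4, 2.85, 6.20 and 5.21% of the miR-100-5p reads in the 4 libraries. 2-month replicate 2 was lowest in both. An added T took 5.28, 2.48, 3.93 and 5.18% of the miR-99a-5p reads. These shares of miR-99a-5p and miR-100-5p differed more between the 2-month replicates than between the ages. For miR-99b-5p the added A took 3.60 and 3.25% (2-month) against 2.73 and 1.67% (18-month), without overlap (exact permutation p = 0.333). Its added T overlapped, with 2.07, 1.25, 2.05 and 1.09% in the 4 libraries. A background over all miRNAs was not computed for added bases. Of all reads with a miRNA name, those of 23 nt or more were 17.0 to 18.5% in the 4 libraries, with 18.5% in both 2-month libraries.

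The 5′ end was more uniform in the abundant members. Reads that started before or after the annotated first base were 1.57 and 1.46% of miR-99a-5p at 2 months and 1.52 and 1.63% at 18 months. Of miR-99b-5p they were 2.09 and 2.12% (2-month) against 2.50 and 2.59% (18-month), without overlap (exact permutation p = 0.333). For shifted starts no background over all miRNAs was computed, so how common such a lack of overlap is was not tested. For miR-100-5p the shifted reads were 1.63, 1.06, 1.49 and 1.69%. A start 1 base downstream gives the seed CCCGUA, whose 6mer seed viability was 79.7%, against 57.2% for the annotated seed. Over all members the shifted reads made up 1.66, 1.51, 1.58 and 1.72%, which overlapped between the ages (exact permutation p = 0.667).

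Shifted starts of the miR-10 members were all 1 base downstream, and they rest on few reads. For miR-10a-5p these were 18 of 90 and 29 of 78 reads of the 2-month libraries (20% and 37.2%, with 95% Wilson intervals of 13.04 to 29.4% and 27.3 to 48.3%). In the 18-month libraries they were 12 of 95 and 22 of 72 reads (12.6 and 30.6%, intervals 7.38 to 20.8% and 21.1 to 42.0%). For miR-10b-5p the counts were 14 of 74 and 7 of 60 reads (2-month) against 2 of 47 and 3 of 62 reads (18-month), or 18.9, 11.7, 4.26 and 4.84%. The intervals of the last 2, 1.17 to 14.2% and 1.66 to 13.3%, include the shares of miR-99b-5p in the same libraries, so for miR-10b-5p a larger share was not clear at 18 months. In each library the share for miR-10a-5p was above that of every miR-99/100 member, and its lowest interval bound, 7.38%, was above their highest share of 2.59%. The seed of these reads, CCCUGU, had a viability of 52.1%, lower than the 74.7% of the annotated miR-10 seed, whereas the shift in miR-99/100 went to a higher viability.

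At the 3′ end, 19.0% of the 578 miR-10 reads reached the annotated last base or went beyond it. By library this was 18.9 and 25.4% at 2 months and 10.6 and 21.6% at 18 months, which overlapped (exact permutation p = 0.667). Most of the others ended 1 base short, as the most abundant read of miR-10a-5p did.

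A G in place of the first A was frequent in miR-99a-5p and miR-100-5p. Reads with this substitution, A1G on the mature sequence, were 3.81 and 3.76% (2-month) and 3.61 and 3.57% (18-month) of the miR-99a-5p reads, from 4180 to 6763 reads in a library. For miR-100-5p they were 1.06, 1.21, 1.08 and 1.08%. Of the 51 miRNAs that start with A and had at least 1000 reads in each library, these were the highest 2 by mean share among reads that match the mature sequence from position 2 to 15 (3.74 and 1.11%), followed by miR-132-5p with 0.370% and with a median of 0.0782%. Other first bases were rare in miR-99a-5p, with A1T in 0.032 to 0.041% and A1C in 0.005 to 0.009% of the reads. Position 1 lies outside the seed, so these reads keep ACCCGU. A read with G at position 1 cannot be told apart from a read that starts 1 base downstream with a G added in front.

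By the root mean square distance of log2 CPM over the 4 libraries, each centred on its mean, the miRNAs nearest to a member were listed from 270 candidates that reached 100 CPM on average. For miR-99b-5p these were miR-668-3p, miR-770-3p and miR-98-5p, at distances of 0.19 to 0.21. miR-668-3p had 704 and 634 CPM against 410 and 361 CPM. For miR-99a-5p they were miR-192-5p, miR-26a-5p and miR-151-5p, and for miR-100-5p they were miR-433-3p, miR-218-5p and miR-129-5p. With 4 libraries this order is a description of these libraries only.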

How the data were processed

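Ago-bound RNA was sequenced from the cortex and hippocampus in 2 libraries per age. The methods of the study name size markers of 19 to 35 nt for the gel. The groups and replicate numbers were taken from the sample labels. The authors trimmed the reads (Trim Galore, per the labels), collected the distinct sequences of all libraries, dropped rare ones, named the others by comparison with known mouse small RNAs and deposited CPM values per sequence and library, with the mean viability of each 6mer seed as a score that the authors looked up from a screen. Versions are not given in the sources used here. Part of the deposited RNA names, those of mRNAs, refer to mm9, and the build behind the miRNA names is not given; no mm9 coordinates were used. Sequences were 15 to 33 nt long, and the smallest read total of a sequence over the 4 libraries was 4, so rare reads of the miR-10 members may be missing.

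Whole reads were recovered from the deposited CPM values (100% of nonzero values whole, tolerance 0.1 reads), which gave 10484940 and 11388999 reads (2-month) and 10575081 and 9067007 reads (18-month). Values were summed by miRNA name. limma 3.58.1 with an intensity trend was fitted in R 4.3.3 to log2(CPM + 1) with no covariate but age, and p-values are two-sided. Fold changes are on this scale, which understates changes of low miRNAs. A value per library was compared by an exact permutation test. Intervals of shares are 95% Wilson intervals and those of reads are 95% Poisson intervals. edgeR 4.0.16 and DESeq2 1.42.0 on the recovered reads, other pseudocounts, filters and scalings, a replicate block and leaving out each library were the alternatives. The main limma fits and the edgeR fits were tested on simulated counts, and the other alternatives were not.

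The replicates are separate libraries, and p-values measure only the spread between them. Same-numbered libraries are different mice, and no label says that a number marks a shared day or batch. The members, the gene and marker lists and the tests were chosen with earlier results of these data known. The named miRNAs are the members, their 3p arms, the miRNAs of their clusters, other Hox-linked miRNAs, miR-124-3p and the 3 nearest miRNAs to each member by profile. Reads were placed on hairpins from GENCODE M21 (GRCm38), and no member read lay on the hairpins of more than 1 member.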

Additional observations from a re-analysis of the deposited data

Results flagged for a closer look

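Reads without a miRNA name, which enter none of the comparisons above, were found on the hairpins of 3 members. On the miR-99a hairpin they reached 230.3 CPM in the highest library (210, 134, 230.3 and 181 CPM over the 4 libraries), on the miR-99b hairpin 41.9 CPM (41.9, 31.5, 19.0 and 17.5 CPM) and on the miR-100 hairpin 39.3 CPM (39.3, 29.5, 26.9 and 22.6 CPM). They were flagged because they lie outside the measured names and above the 3-read floor. They came to 1.33%, 1.48% and 1.21% of the reads with the name of the member, and adding them moved the log2 change of no member by as much as 0.01.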

How the results depend on the processing

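miR-99b-5p was lower at 18 months under all 16 alternatives, and it lost the call under 1 of them, without 18-month replicate 1 (log2 change −0.91, adjusted p = 0.379 by limma). Leaving out 1 library at a time gave −1.23 to −0.64. edgeR gave −0.74 (adjusted p = 0.252) and DESeq2 −0.75 (adjusted p = 0.141), both calls by their unadjusted p. miR-99a-5p was higher and not called under all 16, with 0.01 to 0.68 when 1 library was left out. miR-100-5p ranged from −0.74 to 0.027 when 1 library was left out, and it turned positive (0.027) without 2-month replicate 1. The log2 change of miR-10a-5p was 0.31 after rescaling by the median of ratios. The log2 ratio of the subgroup sums ranged from −0.13 to 0.31 when 1 library was left out.

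In the fit with a replicate block the log2 changes were those given above (−0.94 for miR-99b-5p, adjusted p = 0.280; 0.34 for miR-99a-5p, adjusted p = 0.361; −0.35 for miR-100-5p, adjusted p = 0.446, limma), so no member's call changed. There were 79 miRNA calls and 13 calls of member sequences under the block. The deviations of the libraries numbered 1 from the mean of their age correlated only weakly between the ages (0.180). With 2 libraries per age, those numbered 2 deviate by the same amounts with the opposite sign, so they add no second value.

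The 74 miRNA calls became 43 with a minimum of 100 CPM (273 tested) and 125 without a filter (1029 tested), and 55 to 74 when 1 library was left out. After rescaling there were 64, and DESeq2 gave 69. The 10 calls of member sequences became 4 with a minimum of 10 CPM (35 tested) and 22 without a filter (425 tested), and 8 to 21 when 1 library was left out. Of the shares of reads with a shifted start, that of miR-99b-5p changed by 0.29 percentage points with age among sequences of at least 20 nt and by 0.44 over all sequences.

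A fit without 1 library has 1 library in that age, which is assumed to vary like the other age.

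Depth limits the miR-10 members, with 47 to 95 reads a library, and 2 libraries per age limit every comparison between the ages.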
